A study of Mus musculus with 6 samples.

Results

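Hnf4a, Hnf4g, Cdx1, Cdx2, Gata4, Gata5, Gata6 and Pdx1 encode the transcription factors that set and keep the identity of intestinal epithelium. These 8 genes were taken by symbol from a table of 31227 mouse genes, and all 8 were found and passed the filter on low counts, which left 15503 genes. RNA was sequenced from intestinal organoids, cultures of gut epithelium grown from its stem cells, in 3 groups of 2 libraries. The groups were wild type (WT), Smad4 KO, in which the common SMAD of the TGF-β and BMP pathways is inactivated, and Smad4 KO+TGFb, the same genotype given 0.5 nM TGF-β. The sample names give 48 h throughout, and the treatment text can be read as 48 h alone or as 48 h followed by 2 further days with TGF-β. Organoids were grown in a medium with EGF (50 ng/ml), R-spondin1 (500 ng/ml) and Noggin (100 ng/ml), so the WT group too was kept with an inhibitor of BMP ligands. The labels do not give the gut segment, the age of the mice, how Smad4 was inactivated, or whether replicates came from separate cultures or animals. The p-values therefore set differences between groups against a spread between these libraries, which may be technical.

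HNF4A and HNF4G are closely related nuclear receptors that act on shared sites and drive enterocyte genes, those of the brush border and of fat absorption. The homeodomain protein CDX2 holds the fate of the intestine against that of the stomach, and CDX1 is its paralog. GATA4 is a zinc finger factor of the duodenum and jejunum and is low in the distal ileum, GATA6 is found along the whole gut, including the crypts, and GATA5 lies mostly in differentiated villus cells. PDX1 is a homeodomain factor of pancreas, duodenum and the antrum of the stomach. HNF4 factors and SMAD4 have been described as partners in enterocyte differentiation.

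The libraries held 40.55 to 50.7 M estimated counts. Smad4 itself stood at 99.4 and 109.5 CPM (counts per 1 M counts, scaled by the TMM method) in WT. It had 21.7 and 23.1 CPM in Smad4 KO and 25.2 and 29.5 CPM in Smad4 KO+TGFb, so the libraries followed their genotype labels. The level of Smad4 cannot check the TGF-β label. Genes of general epithelium such as Epcam and Krt8 summed to at least 7532 CPM in each library. By contrast, 5 endothelial markers summed to 0.783 to 1.89 CPM, with Cdh5 and Kdr at 0, and 6 leukocyte markers to 2.97 to 4.79 CPM. The 7 fibroblast markers summed to 16.4 and 16.6 CPM in WT, 5.6 and 6.67 CPM in the knockout and 3.33 and 6.09 CPM with TGF-β, most of it Vim, with Col1a2, Col3a1, Dcn and Lum at 0 in all 6 libraries.

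Promoter sequences from RefSeq (GRCm38.p6, 250 bases before to 50 after a start) were kept for 4 of the 8 genes. These were Hnf4a, Gata5, Cdx2 and Pdx1, with 2 starts for Hnf4a. Promoters of the remaining members were not searched, which does not show that RefSeq lists none for them. The 2 Hnf4a windows, that of Cdx2 and that of Gata5 are shown, because Hnf4a was the most abundant member, Cdx2 the steadiest and Gata5 the gene that rose with TGF-β. Capitals mark matches, on either strand, to the GATA motif AGATAA.
Hnf4a, upstream start, chr2:163506607-163506906, plus strand: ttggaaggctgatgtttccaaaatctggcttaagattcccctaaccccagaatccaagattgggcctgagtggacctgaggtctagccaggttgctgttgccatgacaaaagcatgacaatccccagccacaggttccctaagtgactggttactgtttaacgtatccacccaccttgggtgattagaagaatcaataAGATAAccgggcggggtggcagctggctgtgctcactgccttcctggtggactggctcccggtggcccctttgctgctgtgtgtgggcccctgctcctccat
Hnf4a, downstream start, chr2:163546905-163547204, plus strand: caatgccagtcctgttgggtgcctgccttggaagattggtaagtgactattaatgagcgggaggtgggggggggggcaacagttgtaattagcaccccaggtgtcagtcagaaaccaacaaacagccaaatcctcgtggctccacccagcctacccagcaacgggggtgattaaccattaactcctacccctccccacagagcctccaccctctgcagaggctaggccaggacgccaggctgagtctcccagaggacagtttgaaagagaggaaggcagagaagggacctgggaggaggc
Cdx2, chr5:147307200-147307499, minus strand: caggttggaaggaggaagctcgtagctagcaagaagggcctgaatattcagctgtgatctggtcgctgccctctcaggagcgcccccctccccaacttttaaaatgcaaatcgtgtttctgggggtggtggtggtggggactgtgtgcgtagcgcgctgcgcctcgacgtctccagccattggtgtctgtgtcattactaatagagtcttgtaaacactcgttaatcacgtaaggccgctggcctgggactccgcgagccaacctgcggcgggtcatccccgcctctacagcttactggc
Gata5, chr2:180334630-180334929, minus strand: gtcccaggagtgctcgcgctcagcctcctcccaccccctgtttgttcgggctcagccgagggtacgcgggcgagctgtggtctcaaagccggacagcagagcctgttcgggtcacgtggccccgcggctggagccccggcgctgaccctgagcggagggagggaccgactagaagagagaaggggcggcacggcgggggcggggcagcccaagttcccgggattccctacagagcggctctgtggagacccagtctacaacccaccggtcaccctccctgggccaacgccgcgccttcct
The upstream Hnf4a window held 1 GATA motif, at -52 from the start, and of 32851 promoters of this length 11.2% held it. Motifs for HNF4 (CAAAGTC, 4.44% of promoters), CDX (TTTATNG, 10.9%), TEAD (GGAATG, 14.7%) and AP-1 (TGANTCA, 7.81%) had no match on either strand in any of the 5 windows. The short SMAD motif CAGAC, present in 49.6% of promoters, was found once, in the Cdx2 window. The downstream Hnf4a window and those of Gata5 and Pdx1 held no match to any of these motifs. A match is only a description of the letters. Gene counts do not separate the 2 Hnf4a starts.

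Levels of different genes were compared as CPM per kilobase of annotated exon. In WT the order was Hnf4a (186.5 ± 0.597 CPM per kb, mean ± SD, n = 2), Cdx1 (101.7 ± 0.983), Cdx2 (91.0 ± 1.98), Gata4 (43.2 ± 0.488), Hnf4g (26.2 ± 0.0402), Gata5 (18.2 ± 0.338), Gata6 (15.5 ± 0.728) and Pdx1 (10.4 ± 0.408), and no neighbours overlapped between libraries. On this scale Hnf4a was above 98.5% of the genes tested in WT, and Pdx1 above 69.4%. In Smad4 KO Hnf4g moved up to 84.1 ± 3.21 CPM per kb, next to Cdx2 at 85.4 ± 0.286, and the libraries of these 2 genes overlapped. Gata6 (22.5 ± 2.65) then stood above Gata5 (18.7 ± 1.7), without overlap. In Smad4 KO+TGFb Hnf4g (43.7 ± 1.27) was again below Gata4 (50.5 ± 2.23), and Gata5 (31.4 ± 0.556) again above Gata6 (17.8 ± 1.76). Hnf4a, Cdx1 and Cdx2 kept places 1 to 3 in all 3 groups and Pdx1 was the lowest in each, at 8.04 ± 0.366 and 6.25 ± 0.17 CPM per kb in Smad4 KO and Smad4 KO+TGFb.

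**Figure D1:**
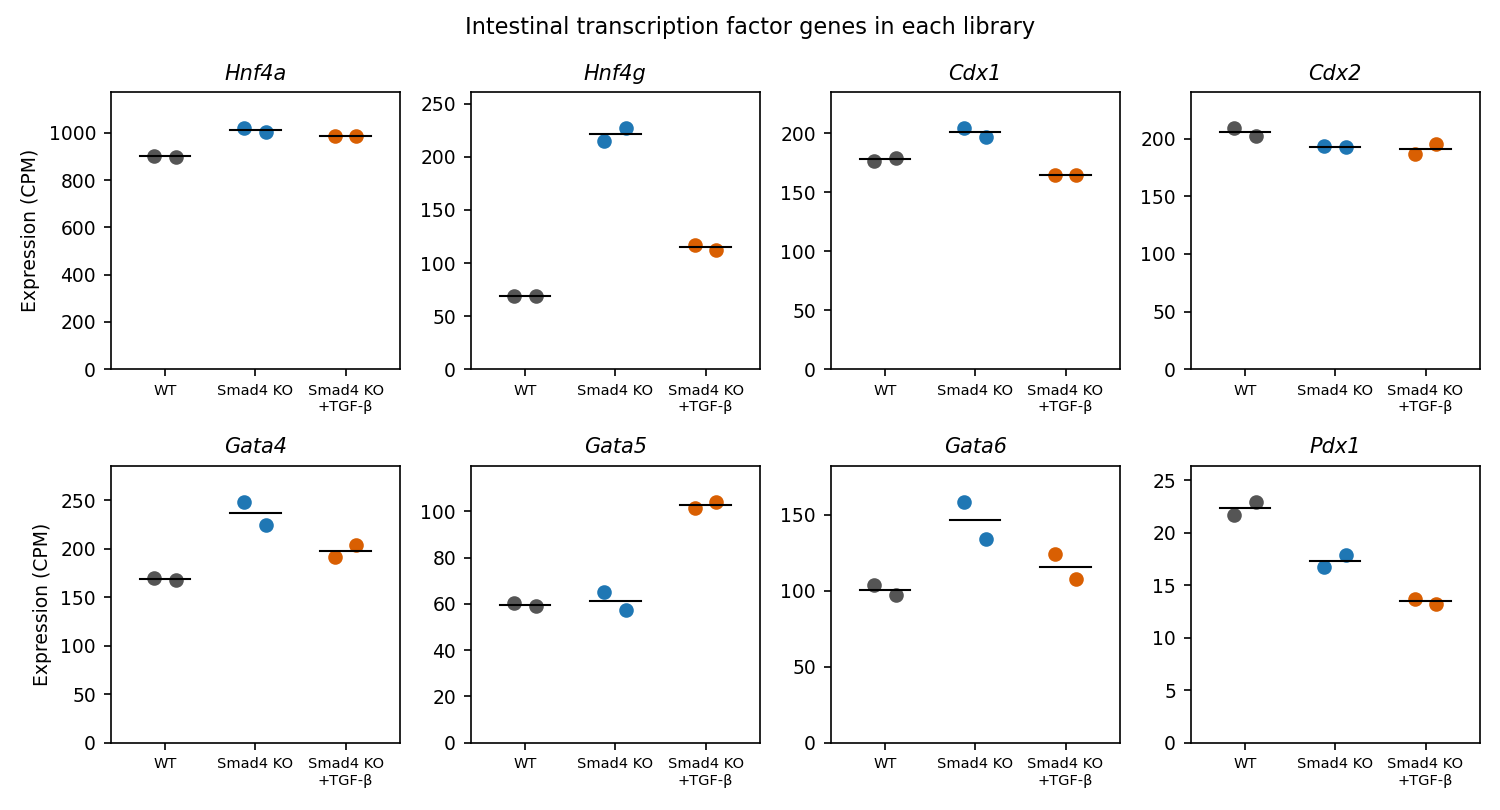
Expression (TMM-scaled CPM, linear axis from 0, with a separate scale for each gene) of the 8 transcription factor genes in each of the 6 libraries; points are libraries and black lines are group means. Hnf4g is highest in the Smad4 KO libraries (215.1 and 227 CPM), Gata5 in the Smad4 KO+TGFb libraries (101.6 and 104.2 CPM) and Pdx1 in WT (21.7 and 23.0 CPM).

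Smad4 KO against WT compares the genotypes without added TGF-β. Hnf4g rose 3.21-fold and Gata4, Gata6, Cdx1 and Hnf4a rose 1.4-fold, 1.45-fold, 1.13-fold and 1.12-fold, while Pdx1 fell 1.29-fold, and Cdx2 and Gata5 did not pass. Thus 6 of 8 passed (edgeR's quasi-likelihood test, Benjamini-Hochberg adjusted p under 0.05 over all genes tested), 5 higher and 1 lower, where 30.3% of all genes tested passed, 16.9% higher and 13.4% lower, a balance that turned with upper quartile scaling (2261 genes higher and 2655 lower, against 2620 and 2084). Without WT replicate 2 the count was 3 of 8. The median log2 fold change of the 8 was 0.17, against -0.02 over all genes. Libraries of the groups did not overlap for 7 of the 8, against 66.7% of all genes. Whether the groups also came from different lines or mice is not labelled and cannot be told apart from genotype, and in bulk RNA more cells of a type and more RNA per cell cannot be told apart either.

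The HNF4 pair moved by very different amounts. Hnf4g (ENSMUSG00000017688, chromosome 3, 3508030 to 3658052, plus strand, GRCm38) stood at 68.8 and 69.0 CPM in WT and at 215.1 and 227 CPM in Smad4 KO. Both Smad4 KO libraries were far above both WT libraries, with a log2 fold change of 1.68 ± 0.05 (SE, n = 2 per group, adjusted p = 5.91e-06). Of the genes tested, 584 passed with a change at least this large in either direction. Hnf4a (ENSMUSG00000017950, chromosome 2, 163506808 to 163572910, plus strand) stood at 902.5 and 898.4 CPM in WT and at 1020 and 1002 CPM in Smad4 KO. This rise was small but larger than the spread between libraries (log2 fold change 0.17 ± 0.02, adjusted p = 0.00187). Per kilobase, Hnf4g made up 12.28% and 12.35% of the HNF4 signal in the WT libraries and 27.9% and 29.4% in Smad4 KO. The summed HNF4 level was 212.7 ± 0.557 CPM per kb in WT and 293.5 ± 0.555 in Smad4 KO. With 2 libraries against 2 an exact permutation test of such a share cannot go below p = 0.333, so the shares are given without a test.

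Of the CDX genes, Cdx1 (ENSMUSG00000024619, chromosome 18, 61018862 to 61036199, minus strand) had 176.8 and 179.3 CPM in WT and 204.2 and 196.9 CPM in Smad4 KO. The log2 fold change was 0.17 ± 0.04 (adjusted p = 0.0277), the groups did not overlap, and the call was lost in each of the 6 fits that left out 1 library (adjusted p = 0.0502 to 0.116), with upper quartile scaling (0.12) and with a replicate block (0.0579). Cdx2 (ENSMUSG00000029646, chromosome 5, 147300805 to 147307270, minus strand) had 209 and 202.6 CPM in WT and 193.6 and 192.6 CPM in Smad4 KO. Its log2 fold change of -0.09 ± 0.05 did not pass (95% interval -0.20 to 0.02, adjusted p = 0.184), although with upper quartile scaling it was -0.16 and passed (0.0409). Cdx1 made up 52.2% and 53.3% of the CDX signal per kilobase in WT, and 57.7% and 56.9% in Smad4 KO.

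Among the GATA genes, Gata4 (ENSMUSG00000021944, chromosome 14, 63198922 to 63271692, minus strand) stood at 170.2 and 167.5 CPM in WT and at 248.3 and 224.3 CPM in Smad4 KO. The Smad4 KO libraries were both higher, and the log2 fold change was 0.48 ± 0.06 (adjusted p = 0.00197). Gata6 (ENSMUSG00000005836, chromosome 18, 11052064 to 11085635, plus strand) stood at 104 and 97.3 CPM in WT and at 158.7 and 134.3 CPM in Smad4 KO (log2 fold change 0.54 ± 0.10, adjusted p = 0.00956). The 2 Smad4 KO libraries differed from each other more for Gata6 than the WT libraries did, and without WT replicate 2 the adjusted p was 0.0574. Gata5 (ENSMUSG00000015627, chromosome 2, 180325133 to 180334699, minus strand) had 60.5 and 58.9 CPM in WT and 65.2 and 57.3 CPM in Smad4 KO. These groups overlapped, and the log2 fold change was 0.04 (95% interval -0.15 to 0.22, adjusted p = 0.767).

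Pdx1 (ENSMUSG00000029644, chromosome 5, 147269959 to 147275848, plus strand) had 21.7 and 23.0 CPM in WT and 16.8 and 17.9 CPM in Smad4 KO. It was the member that fell (log2 fold change -0.36 ± 0.10, adjusted p = 0.0396). The call was lost in each of the 6 fits that left out 1 library (adjusted p = 0.0626 to 0.165), without the filter on low counts (0.0639), in the 4 libraries alone (0.0531) and with a replicate block (0.067). Enteroendocrine cells, the hormone cells of the gut, can also make Pdx1, and of 18 of their markers 11 fell and 7 did not pass, among them Chgb (log2 fold change -1.30) and the hormone genes Gcg (-2.64) and Sst (-1.88). Their summed level was 1093 to 1109 CPM in WT but 451.3 to 470 CPM in the knockout, and their part in the fall of Pdx1 was not tested.

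**Figure D2:**
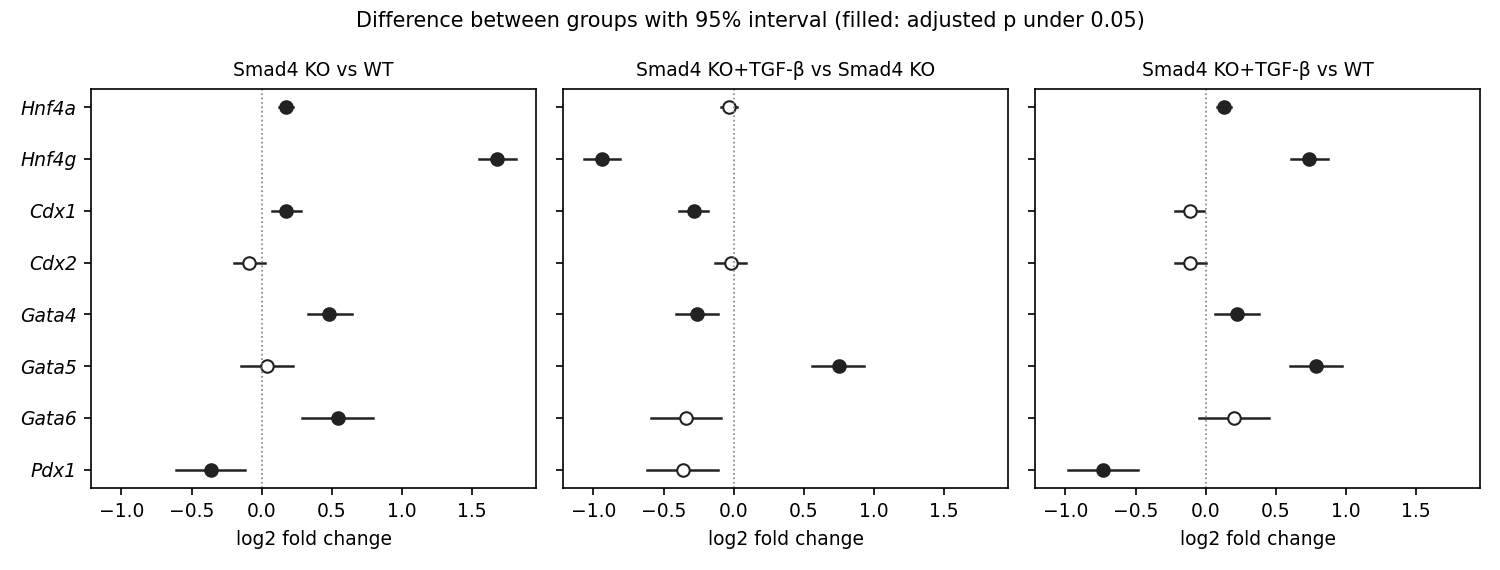
Log2 fold change of each of the 8 genes in the 3 comparisons (points, with the 95% interval of the fitted model as lines; filled points passed at an adjusted p under 0.05). Hnf4g lies at 1.68, -0.94 and 0.74, Gata5 at 0.04, 0.75 and 0.79 and Pdx1 at -0.36, -0.36 and -0.73, while both comparisons with Smad4 KO share its libraries.

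Smad4 KO+TGFb against Smad4 KO sets the knockout with TGF-β against the knockout without it, and if the longer reading of the protocol holds, time in culture may differ as well. Hnf4g fell 1.92-fold, Cdx1 1.22-fold and Gata4 1.2-fold, Gata5 rose 1.68-fold, and Hnf4a, Cdx2, Gata6 and Pdx1 did not pass. In all 4 of 8 passed, 1 higher and 3 lower, where 16.3% of all genes passed, 7.78% higher and 8.48% lower. Without Smad4 KO+TGFb replicate 1 the count was 2 of 8. The groups did not overlap for 7 of the 8, against 56.9% of all genes. The median log2 fold change of the 8 was -0.27, against -0.01 over all genes.

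Hnf4g stood at 117.4 and 112.6 CPM with TGF-β, below both untreated Smad4 KO libraries (log2 fold change -0.94 ± 0.05, n = 2 per group, adjusted p = 0.000136). Hnf4a stood at 986.6 and 988.1 CPM, and its log2 fold change of -0.03 did not pass (95% interval -0.09 to 0.02, adjusted p = 0.353). The share of Hnf4g in the HNF4 signal per kilobase was 17.9% and 17.3%, between its shares in WT and in untreated Smad4 KO.

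Gata5, whose product lies mostly in villus cells, went the other way. It stood at 101.6 and 104.2 CPM with TGF-β, above every other library (log2 fold change 0.75 ± 0.08, adjusted p = 0.00142). Its exons overlap those of the antisense gene Gata5os over 7.87% of their length, and since the strand setting is not known the reads of these 2 genes could not be told apart there. Gata5os itself had 0.687 to 1.64 CPM in the 6 libraries, far below Gata5. Gata4 stood at 191.2 and 203.5 CPM (log2 fold change -0.26 ± 0.06, adjusted p = 0.0362). The call on Gata4 was lost in 5 of 6 fits that left out 1 library (adjusted p up to 0.18), in the 4 libraries alone (0.0598) and with a replicate block (0.0687). Gata6 had 124.1 and 107.8 CPM and did not pass (log2 fold change -0.34, adjusted p = 0.0782), but it passed in DESeq2 (0.0186) and with a replicate block (0.0232). Gata5 made up 18.4% and 18.3% of the GATA signal per kilobase in Smad4 KO and 31.3% and 31.6% with TGF-β, while the summed GATA level was 101.7 ± 8.69 and 99.8 ± 1.03 CPM per kb.

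Cdx1 had 164.9 CPM in both treated libraries (log2 fold change -0.28 ± 0.04, adjusted p = 0.00729), and the adjusted p was 0.0501 without Smad4 KO+TGFb replicate 1. Cdx2 had 186.5 and 195.5 CPM, which overlapped the untreated libraries (log2 fold change -0.02, 95% interval -0.13 to 0.09, adjusted p = 0.872). Pdx1 had 13.7 and 13.2 CPM, the lowest of the 6 libraries, but its log2 fold change of -0.36 (95% interval -0.62 to -0.11) did not pass (adjusted p = 0.0638).

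**Figure D3:**
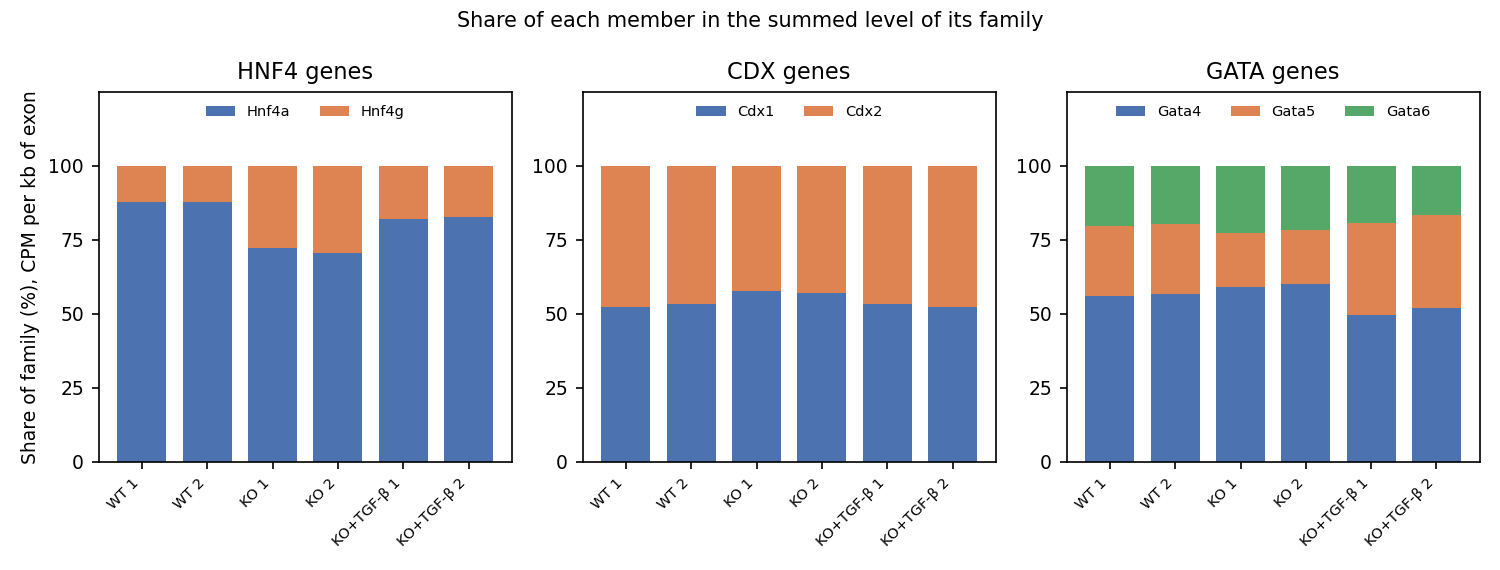
Share (%) of each gene in the summed CPM per kilobase of its family, for HNF4, CDX and GATA genes, in each of the 6 libraries (KO, Smad4 KO). Hnf4g takes 12.28% and 12.35% in WT, 27.9% and 29.4% in Smad4 KO and 17.9% and 17.3% in Smad4 KO+TGFb, and Gata5 is largest in the last group, at 31.3% and 31.6%.

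Smad4 KO+TGFb against WT, which shares libraries with both comparisons above, placed 4 members higher and 1 lower, so that 5 of 8 passed, where 39.7% of all genes passed (20.7% higher, 19% lower; with upper quartile scaling 2783 genes were higher and 3546 lower, against 3216 and 2939). None of the 8 overlapped between these groups, as for 72.3% of all genes. Hnf4g was 1.67-fold higher (log2 fold change 0.74 ± 0.05, adjusted p = 0.000109) and Gata5 1.72-fold higher (0.79 ± 0.08, adjusted p = 0.000409). Pdx1 was 1.66-fold lower (-0.73 ± 0.10, adjusted p = 0.00206), and this call held in all 13 alternative fits. Hnf4a (0.13, adjusted p = 0.00343) and Gata4 (0.22, adjusted p = 0.0301) were slightly higher, although with upper quartile scaling neither passed (0.0611 and 0.0979), and Gata4 was also lost with a replicate block (0.0517) and in 3 of 6 fits without 1 library (up to 0.145). Cdx1 (-0.11, adjusted p = 0.0912), Cdx2 (-0.11, adjusted p = 0.11) and Gata6 (0.20, adjusted p = 0.171) did not pass. With upper quartile scaling Cdx1 and Cdx2 both stood at -0.18 and passed (0.0173 and 0.0212).

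Enterocyte genes were read beside the members, since HNF4, CDX and GATA factors all act on them. In Smad4 KO against WT 26 of 30 rose and 2 fell, with a median log2 fold change of 1.31 against -0.02 over all genes. Apoa1 and Apoa4, apolipoproteins of absorptive cells, had log2 fold changes of 3.23 and 2.53, and Apob, the core protein of chylomicrons, one of 2.63. The 2 that fell were the peptidase genes Anpep (-0.30) and Dpp4 (-1.16), and Apoc3 (-0.01) and Mep1a (0.19) did not pass. With TGF-β against Smad4 KO 25 of the 30 fell and 1 rose, Vil1 (0.18), which encodes the microvillus protein villin, and the median was -0.73 against -0.01 over all genes. The sucrase-isomaltase gene Sis (-1.22), the glucose transporter gene Slc5a1 (-1.04) and, with equal values, Apoa4 (-0.68) and Fabp1 (-1.05), a fatty acid binding protein, had the smallest adjusted p. The summed level of the 30 genes was 7318 to 7353 CPM in WT, 20171 to 20285 CPM in the knockout and 14191 to 14296 CPM in Smad4 KO+TGFb. Group means of Hnf4a, Hnf4g, Gata4 and Gata6 had this same order, with WT lowest and Smad4 KO highest, and those of Cdx1, Cdx2, Gata5 and Pdx1 had another. The step from Smad4 KO to Smad4 KO+TGFb did not pass for Hnf4a (adjusted p = 0.353) or Gata6 (0.0782). Gata6 also did not pass between Smad4 KO+TGFb and WT (0.171), so the order describes means only. Against WT, treated organoids still held 18 of the 30 higher and 8 lower, with Apoa1 at 3.11, Apob at 2.5 and the alkaline phosphatase gene Alpi at 2.01. Beside this list and those below, 16.9% of all genes tested were higher and 13.4% lower in Smad4 KO against WT. The shares were 7.78% and 8.48% with TGF-β against Smad4 KO, and 20.7% and 19% with TGF-β against WT.

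**Figure D4:**
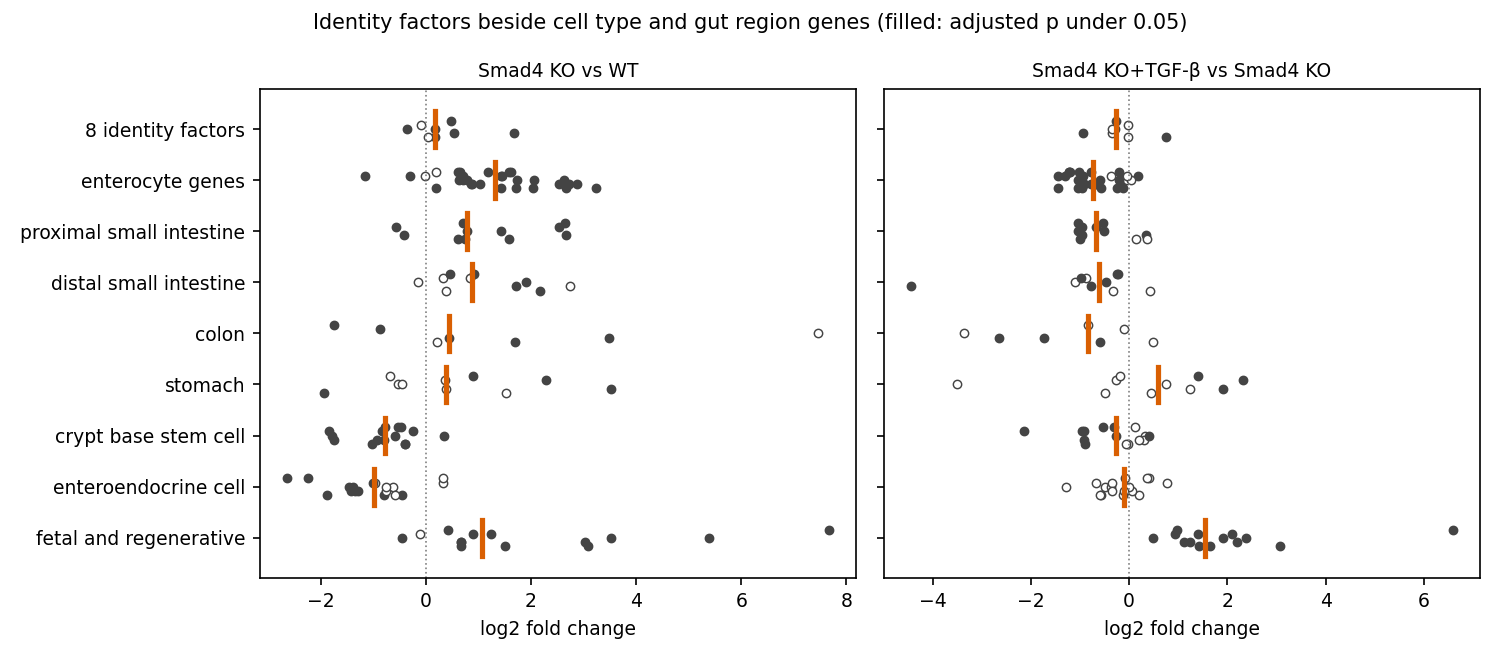
Log2 fold change of the 8 identity factors and of the genes tested in 8 lists (points; filled points passed at an adjusted p under 0.05; orange bars are medians) for Smad4 KO against WT and for Smad4 KO+TGFb against Smad4 KO. The enterocyte median moves from 1.31 to -0.73 and that of the 8 factors from 0.17 to -0.27, and both comparisons share the Smad4 KO libraries, while the colon point at 7.46 (Car1) and the fetal point at 7.67 (Spp1) are genes at 0 in WT, for which this value is no measured fold.

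Gut region was read from genes of proximal and distal small intestine, colon and stomach, several of which are also enterocyte genes. Of 11 proximal genes tested, 9 rose in Smad4 KO and 2 fell (median 0.79). Adh1, an alcohol dehydrogenase, rose by 1.58 and Cyp2b10, a cytochrome P450, by 2.64 on the log2 scale, while the iron reductase Cybrd1 (-0.42) and the iron importer Slc11a2 (-0.57) fell. Of the proximal factors, Gata4 rose and Pdx1 fell, the latter a call lost in several alternative fits. Distal genes had a similar median (0.88), and any link of these factors to the region genes was not tested. Of 10 distal genes 5 rose and 5 did not pass (median 0.88), among them Clec2h (1.71), Slc51a, a subunit of the ileal bile acid exporter (1.91), and Muc13 (0.46). The ileal bile acid importer Slc10a2 had means of 2.88 CPM in WT and 3.74 CPM without Smad4 and did not pass (adjusted p = 0.447). With TGF-β 8 of 11 proximal genes fell and 1 rose, Cybrd1 (0.34), with medians of -0.68 for proximal and -0.62 for distal genes, of which 5 of 10 fell and 5 did not pass. Fabp6, which binds bile acids in ileal enterocytes, had 3.232 and 4.956 CPM in Smad4 KO but 0.3702 and 0 CPM with TGF-β (adjusted p = 0.0401), on few counts.

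Where 16.9% of all genes rose in Smad4 KO and 13.4% fell, 3 of 7 colon genes tested rose and 2 fell. Those higher were the anion exchanger Slc26a3 (1.70), the water channel Aqp8 (3.48) and Mptx1 (0.44), and those lower were Muc4 (-0.87) and Slc37a2 (-1.74). The colon factor genes Hoxb13 and Satb1 had 0 counts in all 6 libraries. Of 10 stomach genes tested 3 rose in Smad4 KO, Krt7 (0.90), Ctse (2.29) and Vsig1 (3.53), and 1, Cldn18 (-1.93), fell. The same 3 rose further with TGF-β, by 1.41, 2.31 and 1.92. Ctse, a protease, went from 1.22 and 0.73 CPM in WT to 5.73 and 3.94 CPM without Smad4 and 22.97 and 25.03 CPM with TGF-β. Krt7 and Vsig1 are on the list of fetal and regenerative genes as well, of which 12 of 14 rose in Smad4 KO and 14 of 14 with TGF-β, Clu by 3.09 in Smad4 KO and Anxa1 by 2.09 with TGF-β. In Smad4 KO+TGFb against WT 4 of the 10 stomach genes tested were higher and 2 lower, where 20.7% of all genes were higher and 19% lower. The stomach factor gene Sox2 and the gastric mucin gene Muc5ac had 0 counts in all 6 libraries. Cdx2, whose product holds stomach fate in check, had at least 186.5 CPM in each library, and any link between these levels was not tested. Counts of 0 in both libraries of a group allow up to 3 fragments over the group, taken as 12 of the deposited units.

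Crypt genes moved too. Of 15 crypt base stem cell genes 13 fell and 1 rose in Smad4 KO (median -0.77), and 8 fell and 1 rose with TGF-β (median -0.27). Olfm4 fell by 0.93 and then by 0.92 on the log2 scale, and Lgr5 by 1.03 and then by 0.90. Of 15 proliferation genes 14 fell in Smad4 KO (median -0.54), with Top2a at -0.61. With TGF-β against Smad4 KO 0 of the 15 passed (median -0.10), Top2a (-0.10, adjusted p = 0.102) among those that did not. How far a larger share of enterocytes, with a smaller one of crypt cells, carries the changes of the 8 factors was not tested.

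Other transcription factors of the gut epithelium showed how the members stood among their peers. Of 28 such genes, 11 rose and 5 fell in Smad4 KO (median 0.32), where 16.9% of all genes rose and 13.4% fell (median -0.02). With TGF-β 7 rose and 6 fell (median -0.12), where 7.78% of all genes rose and 8.48% fell (median -0.01). The smallest adjusted p in Smad4 KO was that of Creb3l3, a membrane-bound activator of lipid genes, which rose from 43.3 to 288.6 CPM (log2 fold change 2.74 ± 0.06, adjusted p = 1.42e-06). Klf5 (0.60) and Onecut2 (0.79) rose in Smad4 KO and rose again with TGF-β (0.20 and 0.47). The nuclear receptor genes Vdr and Nr5a2, like Hnf4g, rose in Smad4 KO (0.25 and 0.47) and fell with TGF-β (-0.90 and -0.86), and so did Ppara (1.60 and -0.77), in comparisons that share the Smad4 KO libraries. Other nuclear receptor genes did not share this pattern: Nr1i2 rose (0.78) but did not pass with TGF-β (-0.13), and Nr1h4 and Nr2f6 passed in neither. Creb3l3 also fell with TGF-β (-0.36). Foxa1, a pioneer factor of endoderm, fell in Smad4 KO (-0.24) and rose with TGF-β (0.77), while its relative Foxa3 fell in both (-0.86 and -0.47). The GATA cofactor gene Zfpm1 had means of 107.2 CPM in WT and 189.2 CPM without Smad4 and did not pass (log2 fold change 0.82 ± 0.37, adjusted p = 0.152).

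The genes whose pattern over the 6 libraries lay nearest to each member were found by the Euclidean distance between log2 CPM profiles, each centred on its own mean, among 10337 genes averaging 5 CPM or more. For Hnf4g they were Mylk3 (distance 0.11) and Cdr2 (0.149). Mylk3 had 5.615 and 5.522 CPM in WT, 17.15 and 18.11 CPM without Smad4 and 8.722 and 8.686 CPM with TGF-β. For Gata5 they were Rin2 (0.125) and Macf1 (0.133), for Pdx1 Wwp1 (0.067) and Intu (0.076), for Gata4 Fam129a (0.101) and Msrb1 (0.105) and for Gata6 Vps11 (0.13) and Spata2 (0.154). The nearest to Hnf4a, Cdx1 and Cdx2 were, in turn, Copb1 and Ddb1 (0.04 and 0.045), Scd2 and Nomo1 (0.038 and 0.042) and Huwe1 and Hcfc1 (0.036 and 0.045). Among the members themselves the nearest pair was Gata4 and Gata6 (distance 0.24) and the farthest Hnf4g and Pdx1 (2.11). These distances come from 3 groups of 2 libraries and describe only that pattern.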

How the data were processed

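The values are estimated counts per Ensembl gene, deposited by the authors as whole numbers, in 1 column for each library. StringTie 1.3.3b, SAMtools 1.9, HISAT2 2.1.0 and FastQC 0.11.9 are named in the submitters' processing notes, with the build GRCm38 (mm10), and neither annotation release nor strand setting is given in the sources used here. Of values from 1 to 24, 42.3% were multiples of 4 (25% if even), so a fragment was taken to add about 4 units, an inference on which floors rest. Positions and exon lengths come from GENCODE vM21 (GRCm38), and a longer annotated than used exon lowers a level per kilobase. Symbols come from a list of gene names by Ensembl gene, and from GENCODE for genes missing from it.

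Genes were filtered with filterByExpr and scaled by TMM. edgeR 4.0.16 (R 4.3.3) quasi-likelihood tests, 2-sided, with the group as the only term over all 6 libraries (3 residual degrees of freedom) gave log2 fold changes, SE and 95% intervals. The test was also run on simulated data in which far fewer genes changed than passed here. That run therefore does not show how the test errs under changes as broad as these. Alternatives, run for the member genes and gene counts, were RLE and upper quartile scaling, DESeq2 1.42.0, no low count filter, a replicate block, the 4 libraries alone, values divided by 4, and each library left out. Floors cover counting error only. Replicates differed by more than sampling noise (chi-square per degree of freedom 5.18 to 6.15 on values divided by 4, where noise alone gives about 1). The 8 members, the gene lists and the rules were chosen with earlier results of these data known. Named genes were Smad4, the 8 members, the 2 nearest genes in pattern to each, up to 3 passing genes with the smallest adjusted p per list and comparison, and members of a list that went against it; other list members, Zfpm1, Slc10a2, Fabp6, Foxa3, Ppara and genes at 0 among them, were picked with their values in view. Individual values of certain list members are not reported here.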

Additional observations from a re-analysis of the deposited data

How the results depend on the processing

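Each of the 24 member results (8 genes in 3 comparisons) was recomputed in 13 alternative fits. Of these 312 values 272 kept their direction and their side of the threshold, 32 lost a call, 5 gained one and 3 changed sign, all 3 close to 0. Hnf4g in all 3 comparisons, Gata5 in both with TGF-β, Hnf4a and Gata4 in Smad4 KO against WT and Pdx1 in Smad4 KO+TGFb against WT passed in every one of the 13. The cause of the other shifts was not tested, except that fits without a library have fewer samples. With upper quartile scaling, log2 fold changes in Smad4 KO against WT were 0.10 for Cdx1, -0.16 for Cdx2 and -0.03 for Gata5, which changed sign, and in Smad4 KO+TGFb against WT they were 0.06 for Hnf4a, -0.18 for Cdx1, -0.18 for Cdx2 and 0.15 for Gata4. Pdx1 in Smad4 KO against WT stood at -0.36 without the low count filter and at -0.36 in the 4 libraries alone, and Gata4 in Smad4 KO+TGFb against Smad4 KO at -0.26 in its 4 libraries. DESeq2 gave -0.33 for Gata6 in the latter comparison.

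Deviations of same-numbered libraries correlated at 0.00135 to 0.0138 between groups, so no shared shift by replicate number was seen over all genes tested. Such values cannot show whether same-numbered libraries came from the same animal or culture. A replicate block gave 4 of 8 members passed in each comparison and, of all genes, 4184, 2153 and 5667 for Smad4 KO against WT, Smad4 KO+TGFb against Smad4 KO and Smad4 KO+TGFb against WT. With the block Cdx1 (0.17) and Pdx1 (-0.37) did not pass in the first, Gata4 (-0.26) did not and Gata6 (-0.34) did in the second, and Gata4 (0.23) did not in the third.

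Leaving out each library in turn left 3 to 4 members passed in Smad4 KO against WT, fewest without WT replicate 2, and 2 to 4 in Smad4 KO+TGFb against Smad4 KO, fewest without Smad4 KO+TGFb replicate 1. In the first, log2 fold changes ranged from 0.14 to 0.20 for Cdx1, from -0.06 (without Smad4 KO replicate 1) to 0.13 for Gata5, from 0.42 to 0.66 for Gata6 and from -0.41 to -0.32 for Pdx1, and genes called lower numbered 1166 to 1867, fewest without WT replicate 1, next 1227 without WT replicate 2, then 1387 when Smad4 KO replicate 1 was left out. In the second they ranged from -0.31 to -0.26 for Cdx1, from -0.05 to 0.02 (without Smad4 KO+TGFb replicate 1) for Cdx2 and from -0.33 to -0.18 for Gata4. There 1504 to 2304 genes passed, 656 to 1108 higher and 848 to 1196 lower, 1504 without Smad4 KO+TGFb replicate 1, 1534 without its replicate 2 and 1630 without Smad4 KO replicate 2. In Smad4 KO+TGFb against WT Gata4 ranged from 0.18 to 0.28. An arm with 1 library was assumed to vary like the others.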

Other observations

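HOX genes, which carry position along the body axis, were low in these organoids. Of 39 HOX genes, 19 had 0 counts in both WT libraries, 23 in Smad4 KO and 17 in Smad4 KO+TGFb, and all 39 together summed to 13.0 to 17.7 CPM in a library. Of the 16 tested, 1 passed in each comparison, Hoxd4 in both with Smad4 KO and Hoxb3 in Smad4 KO+TGFb against WT. Among all genes tested, 30.3% passed in Smad4 KO against WT, 16.3% in Smad4 KO+TGFb against Smad4 KO and 39.7% in Smad4 KO+TGFb against WT. Hoxd4 had 1.471 and 0.6845 CPM in WT, 0 CPM in both Smad4 KO libraries and 0.1851 and 0.6611 CPM with TGF-β, all of them few fragments.

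Other members of the GATA and CDX families were near 0. Gata1 and Cdx4 had 0 counts in all 6 libraries, and Gata2, Gata3 and Trps1 did not exceed 0.396 CPM in any. Of 6 genes of liver and pancreas tested, Afp, an early endoderm gene, fell by 1.63 on the log2 scale in Smad4 KO and by a further 0.56 with TGF-β, and Ttr, which carries thyroid hormone and retinol, fell by 1.21 with TGF-β. The long noncoding RNA gene Plut, which lies antisense to Pdx1 without shared exon bases, had 6.51 and 6.94 CPM in WT, 2.62 and 3.59 CPM without Smad4 and 4.21 and 3.69 CPM with TGF-β.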
